A study of Rattus norvegicus with 4 samples.

Results

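The potassium and calcium channel genes of cultured rat peritubular myoid cells are described here, with and without testosterone. These are the contractile cells that wrap the seminiferous tubule of the testis. The set holds every probe of the array, control probes aside, whose gene name begins with Kcn or Cacn. Kcn names potassium channels and their subunits, and Cacn voltage-gated calcium channels and their subunits. That rule uses names alone, but earlier results of these data were known when the set was chosen. The set comprised 135 probes for 110 genes, 85 potassium and 25 calcium channel genes, out of 41012 probes with 35666 different gene or transcript names. A probe counted as expressed where the scanner software flagged it as well above background on all 4 arrays. By that measure 45 of the 135 probes, 33.3%, from 36 genes were expressed, against 59.8% of all probes on the array. A further 22 probes, 16.3%, passed on 1 to 3 arrays, and 68 probes, 50.4%, passed on no array, against 29.1% of all probes. No channel probe passed the test for a difference between testosterone and control cells.

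As background, the membrane potential of a muscle cell is held negative mainly by potassium channels that are open at rest, which include inward rectifiers and tandem-pore channels. Depolarisation opens voltage-gated calcium channels, whose pore subunit (alpha1) works with an intracellular beta subunit and an extracellular alpha2delta subunit, and the calcium that enters triggers contraction. Voltage-gated and calcium-activated potassium channels then return the membrane to rest. In smooth muscle the large-conductance calcium-activated channel and the ATP-sensitive channel are well known brakes on contraction.

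Male rats aged 40 days gave the cells, which were kept for 4 days in medium with defined growth factors. The testosterone group (2 arrays) received 1e-07 M testosterone in pulses, and the control group has 2 arrays. The labels carry the same treatment text on both groups and do not say what control cells received in place of the hormone, nor whether the replicates of a group came from separate animals or cultures. The p-values thus rest on the spread among the 4 arrays alone, and that spread may be technical. RNA was labelled with Cy3 and hybridised to single-colour Agilent arrays of a whole-genome rat design, and levels below are log2 processed signals relative to the 75th percentile of each array, so that 0 is that percentile. The lowest level at which any probe passed the background flag lay between -5.68 and -5.51 on the 4 arrays. Levels of different probes are not ranked against each other, since probes differ in how strongly they bind.

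All 4 arrays lay on 1 slide and were scanned together. Control replicate 1 stood apart from the rest. On it 115 spots lay more than 3 log2 units below the other 3 arrays, all of them between array columns 57 and 85, where the other arrays had 0 or 1 such spot. The coefficient of variation among replicated spots in its header was 9.52%, against 5.25% to 5.53% elsewhere, and that among spike-in spots was 11.02%, against 4.47% to 4.90%. Its header was also the only 1 of the 4 to ask for the extraction to be evaluated. Those columns are a wide window, in which 34.3% of all probes on the array had a spot. Of the 45 expressed channel probes 10 had a spot there. The labelled cell type was set against marker genes. Of 10 smooth muscle genes with a probe 8 were expressed, Des, Tagln, Myl9 and Actg2 among them, while Cnn1 passed on no array and no probe was named Acta2 or Myh11. Genes listed for other cell types also passed on all 4 arrays, beside 59.8% of all single probes. They were 7 of 7 for macrophages, 5 of 7 for Leydig cells, 5 of 9 for Sertoli cells and 4 of 9 for germ cells. For endothelium they were 3 of 6, and for neurons and glia 1 of 6. Shares near or below that of all probes do not show that a cell type was present. Wt1 of Sertoli cells, Lhcgr of Leydig cells, Tek of endothelium and Gfap, Rbfox3 and Snap25 of neurons and glia passed on no array. Of the germ cell genes 2 passed on no array and 3 on 1 to 3 arrays. How far each cell type contributed to the channel signals was not tested, and in a bulk culture fewer cells of a type and less RNA per cell cannot be told apart.

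**Figure D1:**
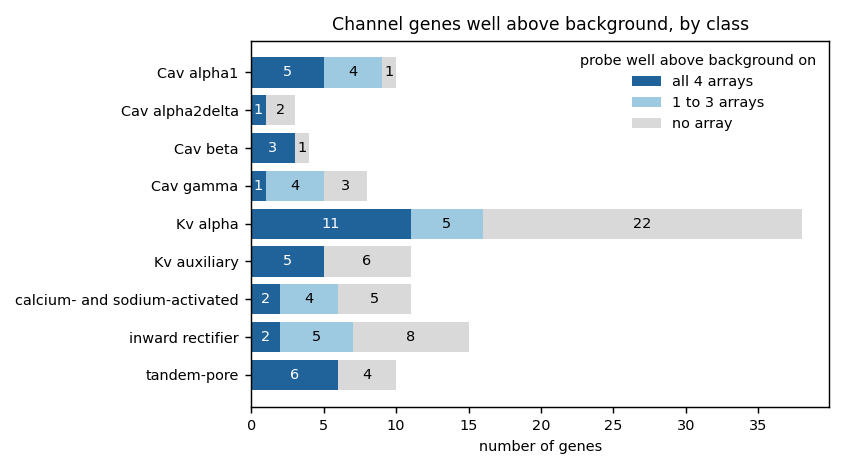
Number of channel genes (horizontal axis) in each class of channel (vertical axis), split by whether a probe of the gene was well above background on all 4 arrays, on 1 to 3 arrays or on no array. The expressed share was 6 of 10 genes for tandem-pore channels and 5 of 10 for the pore subunits of calcium channels. It was 3 of 4 for beta subunits and 2 of 15 for inward rectifiers, beside 59.8% of all probes on the array.

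The share of expressed genes by class of channel is a description without a test, as in the plot of detection by class. It was 6 of 10 tandem-pore genes, 5 of 10 calcium channel alpha1 genes, 3 of 4 beta genes, 1 of 3 alpha2delta genes and 1 of 8 gamma genes. Among potassium channels it was 11 of 38 voltage-gated (Kv) alpha genes, 5 of 11 Kv auxiliary genes, 2 of 11 calcium- and sodium-activated genes and 2 of 15 inward rectifier genes. These are counts of probes that passed a flag. A channel whose probe did not pass was not detectable on these arrays, which does not show that it is absent. A gene counted once any of its probes passed, and 59.8% of all single probes on the array passed on all 4.

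Of the calcium channel pore subunits, Cacna1c, Cacna1d, Cacna1e, Cacna1h and Cacna1s were expressed. Cacna1b, Cacna1f, Cacna1g and Cacna1i passed on 1 to 3 arrays, and Cacna1a on none. Cacna1c encodes the L-type pore of smooth and cardiac muscle and was printed as 10 spots of 1 probe (chr4:154895974-154896033, rat build rn4). Its level was -3.62 and -2.88 on testosterone replicates 1 and 2 and -3.70 and -3.11 on control replicates 1 and 2. Both replicate 2 arrays were above both replicate 1 arrays, and the groups overlapped. The difference, testosterone minus control, was 0.16 with a 95% limma interval from -0.81 to 1.12. A second probe of Cacna1c, at chr4:154936537-154936596, was well above background on no array. Cacna1h, a T-type pore that opens at low voltage (chr10:14622249-14622308), stood at -1.26 and -1.73 with testosterone and at -1.14 on both control arrays. Both testosterone arrays were lower, by 0.35 at the mean, and the interval of -0.99 to 0.28 spans 0. Cacna1g, another T-type pore, lay at the edge of detection with -5.37 and -5.21 against -5.47 and -5.54. That difference of 0.21 became -0.02 after normexp and quantile normalization. Here and below, normexp added an offset of 50 to each signal, which by itself makes log2 differences of dim probes smaller.

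Cacna1d, an L-type pore that opens at lower voltages than Cacna1c, had 3 expressed probes on chromosome 16. The probe starting at 5383365 read -2.08 and -3.41 with testosterone and -2.11 and -3.13 in controls. At 5465138 the levels were -2.38 and -3.53 against -2.58 and -3.50, and at 5401122 they were -3.94 and -3.46 against -3.86 and -3.93. The first of these probes and the second were higher on both replicate 1 arrays, in treated and control cells alike, and the third did not share that order. Their differences were -0.12, 0.08 and 0.19. Cacna1e, the R-type pore, also had 3 expressed probes. At 69452815 on chromosome 13 the levels were -5.01 and -4.28 with testosterone and -5.42 and -5.13 in controls, so that the groups did not overlap and the difference was 0.63 (-0.22 to 1.48). It was 0.08 after normexp and quantile normalization, and 0.27 to 1.00 with 1 array left out. The other probes of Cacna1e gave 0.15 and -0.14 with overlapping groups. The spots of the probes at 0.63 and -0.14 lie in columns 57 to 85. Cacna1s, the L-type pore of skeletal muscle, read -5.07 and -4.81 against -5.00 and -5.34, close to the edge of detection on every array.

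Auxiliary calcium channel subunits included 3 probes well above the 75th percentile on every array. Cacna2d1 (alpha2delta, which raises the number of channels at the surface and binds gabapentin) read 3.76 and 3.94 with testosterone and 3.92 and 3.86 in controls. All 4 values lay far above the 75th percentile and the groups overlapped (difference -0.04, interval -0.55 to 0.47). Cacna2d2 and Cacna2d3 passed on no array. Cacnb3, a beta subunit that brings the pore to the membrane (chr7:137394172-137394231), read 2.88 and 2.94 against 3.13 and 2.98. Cacnb2, another beta subunit, read 2.22 and 2.12 against 2.34 and 2.39 at chr17:89078259-89078318. For both genes each testosterone array lay below each control array, by 0.14 and 0.20 at the mean, and both intervals span 0 (-0.64 to 0.36 and -0.69 to 0.29). A second Cacnb2 probe, starting at 89076857, gave -3.74 and -4.41 against -3.77 and -4.13, with overlapping groups. The first Cacnb2 probe is far above the percentile and the second far below it on the same RNA, so the level of the gene depends on the probe. Cacnb1 read -4.12 and -4.11 against -4.09 and -4.20, and Cacnb4 passed on no array. Of the gamma subunits Cacng1, which belongs to the skeletal muscle channel, was expressed, at -4.23 and -3.93 against -3.41 and -4.21. Cacng2, Cacng3, Cacng7 and Cacng8 passed on 1 to 3 arrays and Cacng4, Cacng5 and Cacng6 on none.

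Cacng8 was the single channel probe well above background on both arrays of 1 group and neither array of the other. It read -5.24 and -5.49 in controls and -5.83 and -6.02 with testosterone. Set against the lowest level that passes the flag, the processed signals of controls were at least 1.14-fold higher. Choosing the probe by its flags had largely set that direction. Its adjusted p in limma (Benjamini-Hochberg) was 1.00. The measured difference was -0.56, and -0.02 after normexp and quantile normalization. Cacng7, the neighbour of Cacng8 on the chromosome, read -5.63 and -5.01 with testosterone against -4.96 and -4.72. It too entered the test only through the control arrays, which favours lower values with testosterone. Its difference of -0.48 was -0.13 after normexp and quantile normalization. Both genes encode subunits known from AMPA receptors of the brain as much as from calcium channels. These levels all lie near the edge of detection.

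Voltage-gated potassium channel alpha subunits formed the largest class, with 38 genes. The expressed genes included Kcnd1, Kcnd3, Kcng2, Kcng3, Kcng4, Kcnh1, Kcnh4, Kcnh7 and Kcns3. Kcna1, Kcna6, Kcnh3, Kcnh6 and Kcnq1 passed on 1 to 3 arrays. The other 22 passed on no array, among them Kcna2, Kcna3, Kcna4, Kcna5, Kcna7, Kcna10, Kcnb2, Kcnc1, Kcnc2, Kcnd2, Kcnf1, Kcng1, Kcnh2, Kcnh5, Kcnh8, Kcnq3, Kcns1, Kcns2, Kcnv1 and Kcnv2. No member of the Kcna (Shaker) family was expressed on all 4 arrays, although Kcna2 and Kcna5 are known from vascular smooth muscle. Kcnd1, an A-type channel that inactivates fast, read 1.78 and 1.86 against 1.87 and 1.84. Kcnd3, of the same family, read -4.05 and -3.76 against -3.99 and -3.51 on 1 probe, while its other probe passed on no array; the scanner files place both on a chromosome other than that of the gene in the reference table. Kcns3, a silent subunit that modifies other Kv channels, read -4.19 and -3.29 against -4.38 and -3.40.

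Kcnh1, outside the fixed naming rule, was singled out after its values had been seen, since its probe lay above the 75th percentile. Kcnh1, the ether-a-go-go channel, read 3.36 and 3.43 with testosterone and 3.53 and 3.36 in controls. Its groups overlapped, with a difference of -0.05. Kcng2, Kcng3 and Kcng4, like Kcns3, encode silent subunits that form no channel by themselves and join other Kv subunits. The 3 probes of Kcng2 within chr18:77190293-77190709 lay between -3.03 and -2.49 on every array, and since 2 of them overlap they are not independent. Kcng3 read -5.04 and -4.91 against -3.97 and -5.26, with control replicate 1 alone high. Kcng4 read -3.95 and -3.06 against -3.28 and -3.76. The Kcnh4 and Kcnh7 channels, relatives of Kcnh1, lay between -5.36 and -4.47 on every array, and their groups overlapped.

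Kcna6, a Shaker channel, was named after its values had been seen. It read -6.04 and -5.03 with testosterone and -4.21 and -4.60 in controls, and it passed the background flag on 3 arrays. The difference was -1.13 (interval -2.21 to -0.05), with an adjusted p of 1.00 in limma (Benjamini-Hochberg). It was -0.12 after normexp and quantile normalization and ranged from -1.64 to -0.63 with 1 array left out. The probe entered the test only through the control arrays.

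Auxiliary subunits of Kv channels were expressed from 5 of 11 genes, namely Kcnab1, Kcnab2, Kcnab3, Kcne3 and Kcne4. Kcne1, Kcne2, Kcnip1, Kcnip2, Kcnip4 and Kcnrg passed on no array. Kcnab genes encode the intracellular beta subunits, and Kcnab3 read -1.41 and -1.17 with testosterone and -1.28 and -1.01 in controls. Of 2 Kcnab1 probes, that at chr2:155061631-155061690 read -2.74 and -2.52 against -2.52 and -2.52, so the groups were apart only beyond the second decimal (difference -0.11). Kcnab2 read -3.83 and -1.77 against -3.56 and -3.39, and only testosterone replicate 2 stood apart. Its difference of 0.67 has an interval from -1.23 to 2.58. Kcne3 and Kcne4 encode small membrane subunits that modify Kv and Kcnq pores. Kcne3 read -4.22 and -2.81 with testosterone and -3.70 and -2.11 in controls, and both replicate 2 arrays were high. Its range over the 4 arrays, 2.11, was the widest of the 45 expressed channel probes. Kcne4 read -3.54 and -4.59 against -3.24 and -4.14, and both replicate 2 arrays were low.

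Calcium- and sodium-activated potassium channels were expressed from 2 of 11 genes. Kcnn4, the intermediate-conductance channel known from immune cells and from proliferating smooth muscle, read 0.79 and 0.40 with testosterone and 0.86 and 0.64 in controls. Kcnmb4, a beta subunit of the large-conductance (BK) channel that is best known from neurons, read -1.34 and -1.72 against -1.05 and -1.35. The groups overlapped in both genes (differences -0.15 and -0.33, both intervals spanning 0). Kcnma1, the BK pore, had 2 probes: the first passed on no array and the other on 1, testosterone replicate 2, at -5.13, against -6.91, -6.41 and -5.50 elsewhere. Both probes of Kcnmb1, the beta subunit typical of smooth muscle, passed on no array. Kcnmb2, Kcnn1, Kcnn2 and Kcnt2 also passed on none, and Kcnmb3, Kcnn3 and Kcnt1 passed on 1 or 2 arrays. The BK channel was thus represented on all 4 arrays by Kcnmb4 alone.

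Tandem-pore channels carry background potassium current at rest. Kcnk3, Kcnk6, Kcnk9, Kcnk10, Kcnk12 and Kcnk13 were expressed, and Kcnk1, Kcnk2, Kcnk4 and Kcnk15 passed on no array. Kcnk6 read 2.54 and 2.44 with testosterone and 2.68 and 2.44 in controls at chr1:84359796-84359855. A second Kcnk6 probe at chr1:84360723-84360782 read -2.83 and -2.86 against -2.51 and -2.98. As with Cacnb2, the level of the gene depends on the probe, while the differences (-0.07 and -0.10) did not. Kcnk3, an acid-sensitive channel known from vascular smooth muscle, read -3.57 and -3.38 against -2.98 and -3.60. Kcnk13, named after its values had been seen since its mean lay above the 75th percentile, read 0.22 and -0.15 against 0.17 and -0.18. It was higher on both replicate 1 arrays. To complete the class, Kcnk9 read -2.20 and -2.21 against -2.02 and -2.21. Kcnk12 read -3.42 and -2.79 against -3.20 and -3.33. Kcnk10, a mechanosensitive relative of Kcnk2, read -3.09 and -1.98 against -3.07 and -2.33 and was higher on both replicate 2 arrays. In none of these were the groups apart.

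Inward rectifiers were expressed from 2 of 15 genes, Kcnj9 and Kcnj14. Kcnj1, Kcnj3, Kcnj4, Kcnj8 and Kcnj12 passed on 1 to 3 arrays. Kcnj2, Kcnj5, Kcnj6, Kcnj10, Kcnj11, Kcnj13, Kcnj15 and Kcnj16 passed on none. Kcnj9, a subunit of G protein-gated channels, read -4.67 and -3.95 with testosterone and -4.34 and -4.24 in controls. Kcnj14 read -3.73 and -4.86 against -3.85 and -4.27. Kcnj4, a strong rectifier named after its values had been seen, read -5.59 and -4.76 against -4.43 and -3.03, with groups that did not overlap and a difference of -1.45 (-2.97 to 0.08). After normexp and quantile normalization that difference was -0.43.

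**Figure D2:**
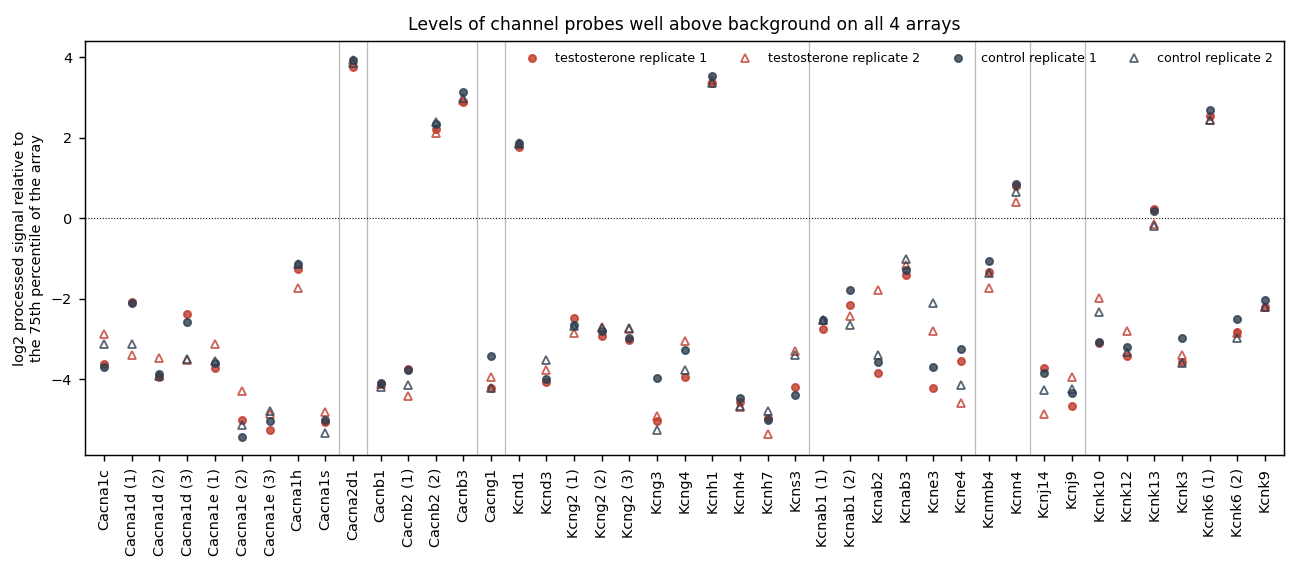
Level of 43 of the 45 channel probes well above background on all 4 arrays (vertical axis, log2 processed signal relative to the 75th percentile of the array, dotted line), one position per probe in the order of the channel classes, with grey lines between classes and one point per array. Most points of a probe lie close together, as in Cacna2d1 and Kcnh1, while in Kcnab2 testosterone replicate 2 lies apart and in Kcne3 both replicate 2 arrays do (heights of different probes are not comparable as amounts of RNA).

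Kcnj8 encodes the pore of the ATP-sensitive potassium channel of vascular smooth muscle, and its probe (chr4:180144084-180144143) missed the definition of expressed through 1 array. It read 2.26 and 4.39 on testosterone replicates 1 and 2 and 4.02 on control replicate 2, but -6.96 on control replicate 1. The fitted difference was 4.80 with an interval from -5.17 to 14.77. Without control replicate 1 the sign turned and the difference was -0.69. The spot, at row 505 and column 80 of the array, lies among the dropped spots of control replicate 1. Of 14 bright neighbouring spots within 2 rows and columns, 13 were more than 1 log2 unit and 12 more than 3 log2 units below the other 3 arrays, and their median lay at -4.94. Within 5 rows and columns it was 55 of 61 by more than 1. On testosterone replicate 1, whose Kcnj8 level was 2.13 below that of testosterone replicate 2, the neighbours had a median of -0.29 and 2 of 17 lay more than 1 below the remaining arrays. On testosterone replicate 2 and control replicate 2 the medians were 0.12 and 0.07, and 0 of 14 lay so far below. On the 3 arrays other than control replicate 1 Kcnj8 was well above background and above the 75th percentile throughout. Abcc9, the sulphonylurea receptor that lies next to Kcnj8 in the genome and completes this channel, was expressed, at -1.79 and -1.05 with testosterone and -2.05 and -1.20 in controls. The pancreatic pair Kcnj11 and Abcc8 passed on no array.

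**Figure D3:**
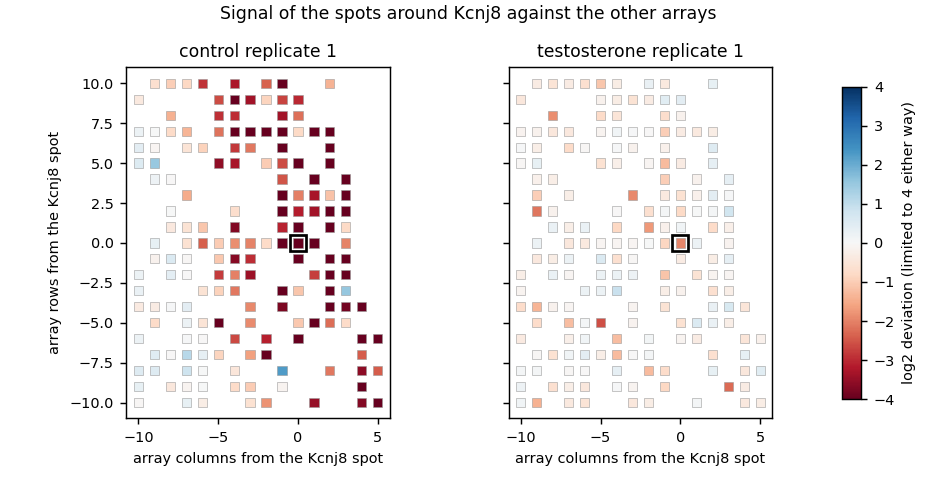
Spots around the Kcnj8 spot (black square) on control replicate 1 (left, deviation from the median of the other 3 arrays) and testosterone replicate 1 (right, deviation from the mean of testosterone replicate 2 and control replicate 2), with array columns and rows from that spot on the axes and the log2 deviation, limited to 4 either way, as colour. On control replicate 1 dark red spots, far below the other arrays, surround Kcnj8 and run up and down the same columns.

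The question of which channels differed between testosterone and control cells was put to 55 tested channel probes from 46 genes, those that passed the background flag on the 2 testosterone arrays, the 2 control arrays or all 4. None of the 55 passed an adjusted p of 0.05 in limma (Benjamini-Hochberg), and neither did any of the 25880 probes tested (0%). At an unadjusted p under 0.05 limma gave 2 of the 55 channel probes, where all tested probes gave 0.804%. Groups did not overlap in 3 channel probes with testosterone higher and in 8 with testosterone lower, beside 6.13% and 8.95% of all tested probes. These counts are no support for a difference, because 10 of the 55 probes entered the test through 1 group only, 7 through the controls and 3 through testosterone. Kcna6, Cacng7, Cacng8 and Kcnj4 were among the 7, and Cacna1g among the 3. Among the 45 expressed channel probes, whose choice did not look at the groups, an unadjusted p under 0.05 was reached by 0, beside 0.355% of 24488 expressed probes. Testosterone was higher without overlap in 2 of the 45, 4.44% beside 5.37%, Cacna1e being one of them. It was lower without overlap in 4, 8.89% beside 8.8%, namely Cacna1h, Cacnb2, Cacnb3 and Kcnab1. The shares of the channel probes thus lay near those of all expressed probes. The counts move with each array left out, as does the set tested. Without testosterone replicate 1, control replicate 1, testosterone replicate 2 and control replicate 2 in turn, 63, 59, 58 and 56 channel probes were tested. Of these 21, 13, 12 and 6 were apart with testosterone higher and 20, 19, 27 and 26 lower. Over all 27909, 27306, 26324 and 26414 probes tested, 11908, 5571, 5662 and 6471 were apart higher and 7734, 6808, 10026 and 8569 lower. With 1 array standing for a group, groups lie apart more readily, so the rise is no result about channels. With 2 arrays in each group an exact permutation test could not go below a p of 0.333, so none was run.

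**Figure D4:**
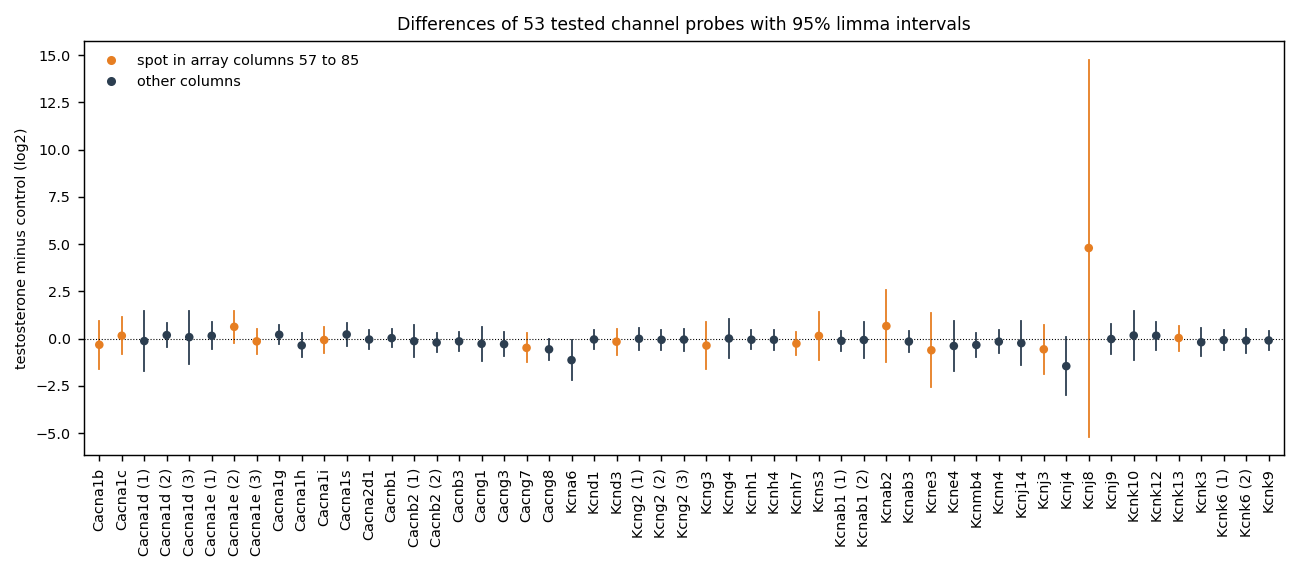
Difference between testosterone and control (vertical axis, log2, means of 2 arrays each) for 53 of the 55 tested channel probes, with bars for the 95% limma interval. Orange marks probes with a spot in array columns 57 to 85. Apart from Kcnj8 at 4.80, all differences lie between -1.45 and 0.67, and all intervals except those of Kcna6 and Cacng8 span 0; both of these entered the test only through the control arrays.

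Of the 45 expressed channel probes 30 had a negative difference, 66.7% beside 52.9% of all expressed probes, and 15 a positive one. Without testosterone replicate 1, control replicate 1, testosterone replicate 2 and control replicate 2 in turn the negative ones numbered 25, 20, 30 and 31, so that positive differences were the more frequent without control replicate 1. The median of the 45 was -0.06, beside -0.01 over all expressed probes, and 42 lay within 0.5 of 0 on the log2 scale. At the median, the 95% limma interval of a tested channel probe reached 0.66 to either side of its difference, against 0.64 for all probes. Changes smaller than that could not be told from 0 for a typical channel probe with these 4 arrays. The intervals are not adjusted for the number of probes tested, so passing the adjusted p took a larger difference still. Kcna6, at -1.13 with an interval that excluded 0, did not pass.

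More of the spread ran between replicate numbers than between groups. The gap between the means of replicate numbers was 0.25 at the median of the 45 expressed channel probes in absolute size, and that between the group means 0.14. In 27 of the 45 expressed channel probes, 60.0%, both arrays of 1 replicate number lay above both of the other, 15 with replicate 1 above and 12 with replicate 2 above. Over all expressed probes with a value on every array the share was 64.5%. Groups were apart in 6 of the 45, 13.3%, against 14.2%. The range over the 4 arrays was 0.55 at the median of the channel probes and 0.46 over all expressed probes; it was under 0.5 in 21 channel probes and over 1 in 10. Of the 45 probes 9, 20.0%, had a mean above the 75th percentile, against 40.7% of all expressed probes. Germ cell markers moved with the replicate number in the same arrays, with a mean level of -2.41 and -3.38 on testosterone and control replicate 1 and of -0.11 and -0.08 on replicate 2. Their part in the channel levels was not tested.

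Genes that act with these channels were followed in a list of 39, covering calcium stores, pumps, other cation channels and regulators, 37 of which had a probe. Of all single probes on the array 59.8% were expressed on all 4 arrays. Here, with 60 probes for 37 genes, 26 genes were expressed, and the brightest probe stood for each. They included the calcium pump Atp2a2 of the sarcoplasmic reticulum, the store release channels Itpr1, Itpr2 and Itpr3, the store-operated entry genes Orai1, Orai3, Stim1 and Stim2, the stretch-activated channel Piezo1 and the calcium-activated chloride channel Ano1. None of the 26 tested genes passed the test, 8 had positive and 18 negative differences, and their median was -0.09. Over all expressed probes 52.9% had a negative difference. Groups were apart with testosterone lower in 3 and higher in 0 of these 26 genes, beside 8.8% and 5.37% of all expressed probes. Piezo1 read 1.16 and 0.76 with testosterone and 1.21 and 0.89 in controls. Ano1 read -3.26 and -4.16 against -2.91 and -4.08, with both replicate 2 arrays low. Abcc8, Atp2b4, Hcn4, Lrrc26, Ryr3, Stac, Trpc4 and Trpc6 were among those that passed on no array. Lrrc26 is a subunit of the BK channel, whose pore and typical beta subunit were not detected on all arrays either.

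Promoter sequences from RefSeq (build GRCr8, from 250 bases before to 50 after the start of the gene) were matched to 72 of the 110 channel genes. The hexamer TGTTCT, the core of the sequence that the androgen receptor recognises, was searched on both strands. It occurred in 9 of 72 channel promoters, 12.5%, against 20.1% of 27457 promoters. The full androgen response element, a palindrome built on that hexamer, occurred in 0 channel promoters and in 2 of all, and the CArG box of muscle genes in 0 and in 1.64%. Of the 24 matched genes expressed on all 4 arrays 3 held the hexamer, and these promoters are printed because the agent studied acts through that receptor. Each runs 5′ to 3′ along the gene, with the hexamer in capitals at base -237 for Kcnab1, -168 for Kcnab3 and -134 for Kcnmb4 from the start of the gene.
Kcnab1, chr2:151614301-151614600, + strand: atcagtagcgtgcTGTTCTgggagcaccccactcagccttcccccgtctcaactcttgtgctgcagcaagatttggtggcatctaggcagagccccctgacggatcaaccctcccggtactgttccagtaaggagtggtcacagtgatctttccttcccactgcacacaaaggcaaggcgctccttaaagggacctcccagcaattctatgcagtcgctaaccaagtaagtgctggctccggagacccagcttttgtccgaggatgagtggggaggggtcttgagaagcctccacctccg
Kcnab3, chr10:54546388-54546687, + strand: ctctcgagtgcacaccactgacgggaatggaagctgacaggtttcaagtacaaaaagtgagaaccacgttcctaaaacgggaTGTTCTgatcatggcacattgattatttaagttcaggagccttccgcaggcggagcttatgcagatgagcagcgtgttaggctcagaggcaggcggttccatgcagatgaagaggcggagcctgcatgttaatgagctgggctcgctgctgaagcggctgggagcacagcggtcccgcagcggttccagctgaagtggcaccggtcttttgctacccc
Kcnmb4, chr7:54005052-54005351, - strand: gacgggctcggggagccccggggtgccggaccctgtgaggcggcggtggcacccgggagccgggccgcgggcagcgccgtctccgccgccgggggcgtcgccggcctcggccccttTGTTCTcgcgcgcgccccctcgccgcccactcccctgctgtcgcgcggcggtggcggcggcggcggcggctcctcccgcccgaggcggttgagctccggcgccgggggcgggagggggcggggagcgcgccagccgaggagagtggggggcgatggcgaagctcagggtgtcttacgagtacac
The probe of Kcnab3 differed by -0.15, that of Kcnmb4 by -0.33 and those of Kcnab1 by -0.11 and -0.07, and none of these differences passed the test. A match is a description of the letters and not of a bound site.

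**Figure D5:**
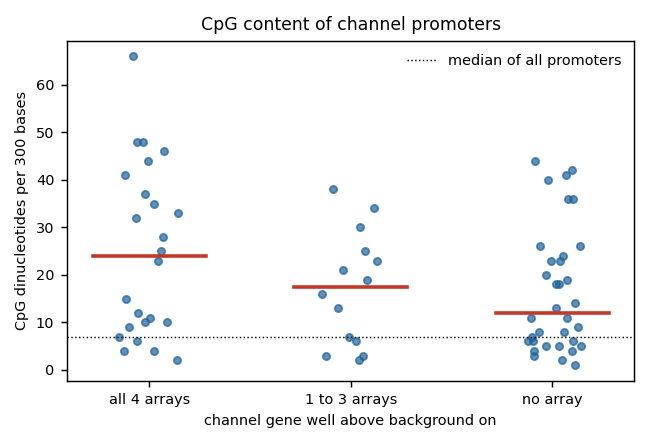
CpG dinucleotides in the 300 bases of each matched channel promoter (vertical axis), grouped by whether the gene was well above background on all 4 arrays, on 1 to 3 arrays or on no array, with one point per gene and red bars at the medians. The medians are 24, 17.5 and 12 in that order, and the dotted line marks the median of all promoters, 7.

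Base composition of the same promoters is given by detection as a description. The median number of CpG dinucleotides was 24 in the 24 expressed genes, 17.5 in 14 genes that passed on 1 to 3 arrays and 12 in 34 that passed on none, against 7 over all promoters. GC content was 66.7%, 62.3% and 61.0% at the median, against 52.3%. The groups overlapped widely, and among the printed promoters Kcnab1 held 9 CpG, Kcnab3 15 and Kcnmb4 48. No test was run.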

How the data were processed

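Gene expression was measured on 4 single-colour arrays, 2 per group, and each sample's group came from its title. Scans were extracted with Feature Extraction 11.5.1.1 and probes placed on rat build rn4, per the file headers. The version in the submitters' processing notes is 10.5. For each spot the deposited files hold a processed signal, an intensity on a linear scale from which the software had removed background, with flags (other values) for background, saturation and outliers. The authors' deposited table of the whole series holds log2 values, which equalled the log2 processed signal minus 1 constant per array.

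Here control and outlier-flagged spots were left out, spots of a probe were averaged, and each array's 75th percentile was subtracted on the log2 scale. Channel genes carry the names in the scanner files, without a _predicted or _mapped ending. RefSeq's table for GRCr8 matched 107 channel probes by accession and 28 by symbol, and gave the chromosomes and neighbours of genes. Probes that passed the background flag on all arrays of either group were tested 2-sided in R 4.3.3 with limma 3.58.1 (lmFit, eBayes, Benjamini-Hochberg adjustment over 25880 probes, no covariate). The code was tested on simulated data with known differences, independent arrays and 1 common spread. That is a simpler setting than these arrays, so the run does not measure what could be detected here. Members and gene lists were chosen with earlier results of these data known. Values were given for a fixed list of common channel genes when expressed, for up to 8 probes per direction with groups apart, for probes detected in 1 group alone and for genes whose probes disagreed by more than 1. Genes added later are named as such.

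Alternatives were other background correction and normalization, the authors' table, median scaling, other filters, a floor, the brightest probe per gene, the replicate number as a block, leaving out array columns 57 to 85 and leaving out each array. Same-numbered arrays deviated together (correlation 0.59 over 24488 probes, 0.62 over 45 channel probes), but the labels do not say that a number marks a shared culture, so arrays were not paired. Marker lists gave median differences over their tested genes of -0.03 for smooth muscle, -0.01 for Sertoli cells, -0.11 for Leydig cells, -0.05 for germ cells, -0.05 for macrophages, -0.36 for endothelium and 0.39 for neurons and glia, and none of their genes passed the test. Channel probe sequences and proteins were not used here, and some genes are counted in the totals but not reported by name or drawn.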

Additional observations from a re-analysis of the deposited data

How the results depend on the processing

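The count of channel probes passing the test was 0 in limma under each of the 13 alternatives. Without control replicate 2, the controls were represented by control replicate 1 alone, the array with the dropped spots. The difference of Kcnj8, whose spot lies among them, was then 10.29. Some probes of the whole array passed in that fit, none of them a channel probe. The median difference stayed between -0.15 and -0.00079 under every alternative. Expressed channel probes numbered 55 when both arrays of 1 group sufficed, 66 with the software's test against background, and 46, in an alternative chosen after seeing the data, without asking for control replicate 1. Of the 55 tested channel probes 3 were apart with testosterone higher, and 1 after normexp and quantile normalization. With no filter on dim probes the set grew to 135 channel probes, of which 14 were apart with testosterone higher and 15 lower. Over all 40972 probes of that fit 4205 were apart higher and 3207 lower. Groups were apart with testosterone lower in 4 of the 45 channel probes expressed on all 4 arrays, against 8 of the 55. Leaving out an array gave 6 to 21 higher and 19 to 27 lower, of 56 to 63 channel probes then tested. In those fits 1 array alone stood for its group, and the counts over all probes rose as well. Over the 45 expressed channel probes, in an alternative chosen after seeing the data, leaving out an array gave 4 to 14 higher, against 2, and 10 to 21 lower, against 4, with 20 to 31 negative and 14 to 25 positive differences, against 30 and 15. Leaving out Kcnj8, chosen after seeing the data, left 3 and 8.

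With the replicate number as a block, 0 channel probes and 0 of all probes passed, and 740 probes (5 of them channels) had an unadjusted p under 0.05, against 208 and 2. The block changed no call.

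Of 125 differences of 25 named probes recomputed with all arrays, 4 turned sign, all after normexp and quantile normalization: Cacna1d at 5401122 (-0.00056), Cacna2d1 (0.012), Cacnb1 (-0.049) and Kcns3 (-0.0048). Normexp and quantile normalization made 17 of the 25 differences over 1.5 times smaller and 2 over 1.5 times larger. Normexp was run with an offset of 50, which by itself makes log2 differences of dim probes smaller. For dim probes a smaller difference there is thus no independent sign that a difference is absent. Leaving out 1 array turned 24 of 100. The lowest and highest differences were -0.21 and 0.53 for Cacna1c, -0.78 and 0.54, -0.50 and 0.66, and -0.049 and 0.43 for Cacna1d at 5383365, 5465138 and 5401122, -0.13 and 0.047 for Cacna2d1, -0.023 and 0.088 for Cacnb1, -0.46 and 0.21 for Cacnb2 at 89076857, -0.077 and 0.0019 for Kcnd1, -0.40 and 0.085 for Kcnd3, -0.34 and 0.64 for Kcns3, -1.40 and 0.19 for Kcne3, -0.91 and 0.14 for Kcne4, -0.35 and 0.045 for Kcnn4, -0.50 and 0.13 for Kcnk3, -0.19 and 0.053 for Kcnk6 at 84359796, -0.33 and 0.14 for Kcnk6 at 84360723, and -0.69 and 10.29 for Kcnj8. Of the other 30 tested channel probes, 6 of 150 differences turned with all arrays and 30 of 120 with an array left out. The causes were not tested. With 4 arrays the number of arrays limits the precision.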
